A study of Rattus norvegicus with 26 samples.

Results

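The 61 probes described here were brighter on d2 or d4 of smooth muscle differentiation than on both d0 and d6, in each of 2 rat multipotent adult progenitor cell (rMAPC) lines. They were chosen by their measured values, out of 41012 probes for rat transcripts on an Agilent array. A probe was taken where, in each line, the higher of its d2 and d4 means exceeded both the d0 and the d6 mean by 1.5 or more on the log2 scale. It also had to be well above background, a call of the scanner software, on all arrays of the peak day. This height, the peak day mean minus the higher of the d0 and d6 means, is called the rise below and is in log2 units. Of the 61 probes, 46 matched a symbol in the rat gene table of NCBI, which gave 39 genes, and 15 did not. All levels, differences and rises below are log2 intensities after quantile normalization unless a fold is named, and a level is compared only with levels of the same probe.

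The rMAPCs were Oct4-expressing clones from bone marrow of female Fischer rats, Cl19 labelled 3 weeks of age and 3c3 labelled E18. Cells of either line were given TGF-β1 (2.5 ng/ml) and PDGF-BB (5 ng/ml) in serum-free basal medium at 5% O2 for 6 days, and RNA was taken on d0, d2, d4 and d6 with 3 arrays per line and day. Both lines received both factors and there was no culture without them over the same days. Each line is 1 clone, and the study's methods call the replicates biological, but neither they nor the labels say how the cultures were separated. The p-values measure the spread between these samples. Purchased primary SMC RNA, which the labels call rat aortic RNA, was put on 2 arrays.

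The array labelled Cl19 d2 replicate 1 was left out of the choice of probes and of every test. Its root mean square difference over 24673 probes was 0.39 to 0.55 from the 3c3 d2 arrays and 0.88 to 0.93 from the other Cl19 d2 arrays, so Cl19 d2 rests on 2 arrays. The slide of 3c3 replicate 3 had a median negative control signal of 62.5 to 79.0, against 44.9 to 48.0 on the other slides. Between 43.2% and 61.4% of the features were well above background on an array. The smooth muscle markers *Tagln* and *Cnn1* were at 9.31 and 7.83 on d0 and at 15.85 and 11.39 on d6 in Cl19. In 3c3 they were at 8.83 and 8.45 and then at 14.78 and 11.12. They are among 7 measured smooth muscle markers, of which *Smtn*, *Des* and *Lmod1* also rose between these days in each line. *Actg2* went from 4.46 to 4.76 in Cl19 and from 5.17 to 6.81 in 3c3. *Myocd*, from 1.88 to 1.92 and from 2.47 to 1.27, was well above background on no more than 1 array of a day. All 6 primitive endoderm markers examined and all 7 epithelial markers were well above background, by at least 1 probe, on every array used of both lines on all days. So were 2 of the 4 blood cell markers, *Cd14* and *Cd68*, while *Ptprc* and *Itgam* were well above background on 0 d0 arrays. The levels of these markers moved over the days. *Cldn4* went from 7.69 on d0 to 14.51 on d6 in Cl19 and from 9.29 to 14.03 in 3c3 by 1 of its probes. *Cdh1* went from 10.30 to 13.58 and from 9.47 to 13.49. *Sox17* went from 12 to 7.88 and from 12.10 to 10.26 by its brighter probe, and its other probe was well above background on no array. *Gata4*, *Gata6* and *Sox7* fell too, while *Foxa2* went up, from 13.27 to 13.93 in Cl19 and from 13.39 to 13.88 in 3c3. *Hnf4a* was highest on d2, with rises of 1.12 in Cl19 and 1.42 in 3c3 by the probe with the larger rises. Their part in the values below was not tested.

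Some of the members, such as *Cldn2*, *Cdhr2*, *Slc5a2*, *Lrp2*, *Dab2* and *Apoa4*, are known from polarized absorptive epithelia such as the proximal tubule of the kidney, the intestine and the yolk sac. Such cells seal their contacts with claudins, carry microvilli linked by protocadherins, take up protein through megalin and its adaptor Dab2, and secrete apolipoproteins that bind lipid. Others act in signalling between cells, among them receptors, growth factor regulators and nuclear factors that switch other genes on or off. These roles are background from general knowledge, and no list of such epithelia was tested. The list of epithelial and keratin genes held no member, where 61 of all 24673 tested probes were members. The median rise of its 28 tested probes was -0.69 in Cl19 and -0.74 in 3c3, against -0.21 and -0.19 for all tested probes.

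Promoter sequences from RefSeq (build GRCr8) are shown for genes with high rises, because the members were raised together. RefSeq held a promoter for 31 of the 39 genes. Among the 6 highest ranked named genes with a sequence, *Gfi1* ranked first by the smaller of its rises in the lines and peaked on d4, and *Muc13* and *Cdhr2*, which peaked on d2, were those with a match to a searched motif. The 250 bases before the transcription start are given 5′ to 3′, from chr14:2187099-2187348 (plus strand), chr11:80485407-80485656 (minus strand) and chr17:9917699-9917948 (minus strand). Capitals mark a motif match.
Gfi1: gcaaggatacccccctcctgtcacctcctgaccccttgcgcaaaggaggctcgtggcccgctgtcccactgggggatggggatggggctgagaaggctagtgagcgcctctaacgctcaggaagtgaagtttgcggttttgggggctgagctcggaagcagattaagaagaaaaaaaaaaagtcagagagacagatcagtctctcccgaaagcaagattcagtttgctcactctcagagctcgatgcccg
Muc13: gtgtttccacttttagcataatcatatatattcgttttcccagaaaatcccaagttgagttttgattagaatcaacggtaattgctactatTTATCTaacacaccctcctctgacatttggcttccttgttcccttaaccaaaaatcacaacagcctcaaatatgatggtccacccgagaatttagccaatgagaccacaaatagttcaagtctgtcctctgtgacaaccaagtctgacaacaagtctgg
Cdhr2: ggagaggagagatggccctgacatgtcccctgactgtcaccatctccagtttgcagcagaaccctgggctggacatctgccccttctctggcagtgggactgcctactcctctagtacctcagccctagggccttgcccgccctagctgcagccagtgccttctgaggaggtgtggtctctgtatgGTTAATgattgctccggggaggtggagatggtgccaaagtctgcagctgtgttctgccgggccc
The capitals in *Muc13* are a GATA motif (AGATAA) on the other strand, from base -159. In *Cdhr2* they are a part of an HNF1 site (GTTAAT) from base -64. Both strands were searched in the same 250 bases of all genes, and matches of different motifs could overlap. GTTAAT was in 5 of the 31 members' promoters, those of *Cdhr2*, *Thrb*, *Klf14*, *Apom* and *Cltrn*, or 16.1%, against 6.46% of all 27457 promoters. AGATAA was in 6.45% of the members' promoters and 10.0% of all, the SMAD motif CAGACA in 12.9% and 16.9%, and the TATA motif TATAAA in 9.68% and 13.1%. The HNF4 motif CAAAGTCCA was in none of the 31 and in 0.331% of all. The members' promoters had a median GC content of 58.8%, against 52.0% for all. These are counts of letters, and no test was made of them.

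In Cl19, 284 probes met the criteria and in 3c3, 175 did. The 61 that did so in both lines were 21.5% of the former and 34.9% of the latter. Another 8 probes had a rise of 1.5 or more in both lines but at the peak at least 1 array was too dim for that call. The reverse shape, a mean on d2 or d4 lower than both d0 and d6 by 1.5 or more with d0 and d6 well above background, was met by 99 probes in Cl19, 51 in 3c3 and 10 in both. The median rise of the members was 2.10 in Cl19 (from 1.51 to 4.86) and 2.41 in 3c3 (from 1.51 to 5.31), and 30 members had a rise of 2 or more in both lines. That is a measured 4-fold only where d0 and d6 were well above background. On d0, 22 members in Cl19 and 24 in 3c3 were well above background on no array. In 57 members, every array of the peak day lay above every d0 and d6 array in both lines. These values chose the probes and are a description. In RNA from whole cultures, more cells with a transcript and more of it per cell cannot be told apart.

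The peak fell on d2 in both lines for 44 probes and on d4 in both for 6. It fell on d2 in Cl19 and d4 in 3c3 for 7, and on d4 in Cl19 and d2 in 3c3 for 4. Just inside the threshold lay *Slc51a*, with rises of 1.51 in Cl19 and 1.72 in 3c3, and *Scd*, with 1.51 and 1.51. Just outside were the carboxypeptidase *Cpm*, just under 1.5 in Cl19 and at 2.47 in 3c3, and the carboxylesterase *Ces2a*, at 1.87 in Cl19 and just under 1.5 in 3c3.

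**Figure D1:**
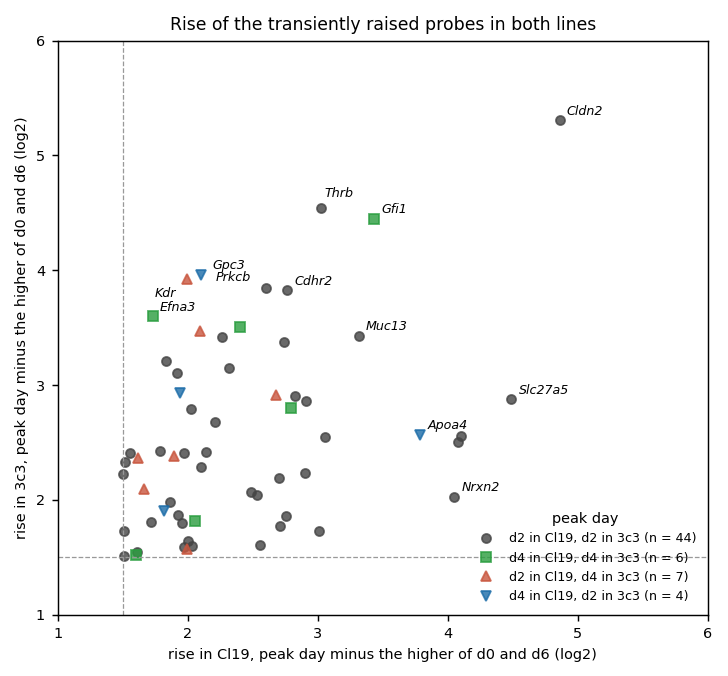
Rise of each of the 61 probes in Cl19 (horizontal) and 3c3 (vertical), in log2 units, with symbols by peak day and dashed lines at the threshold of 1.5. *Cldn2* stands at 4.86 and 5.31, and the 44 probes that peaked on d2 in both lines fill the range from the threshold up.

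The array labelled Cl19 d2 replicate 1 had no part in the choice. Of the 51 members with a d2 peak in Cl19, 47 were higher on it than on every Cl19 d0 and d6 array. On this array 50 of them were well above background, as were 54.4% of all features. Its median distance above the higher of the Cl19 d0 and d6 means was 2.16. For 43 of the 51 its value lay nearer to the 3c3 d2 mean than to the Cl19 d2 mean. What RNA this array held was not tested. The 3c3 d2 means entered the choice, so these counts are a description and no independent check.

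Among genes of epithelial contacts and the apical surface, *Cldn2* had the highest rise of all. It encodes claudin-2, which forms paracellular pores for cations and water in tight junctions, and its probe lies at chrX:127548305-127548364 (rn4, as all probe positions here). In Cl19, *Cldn2* was at 0.40, 0.37 and 0.77 on d0, 4.97 and 7.13 on d2, 6.72, 5.14 and 4.94 on d4 and 1.06, 0.45 and 2.04 on d6. The 3c3 arrays were at 0.43, 1.13 and 0.45 on d0, 6.70, 6.39 and 6.23 on d2, 2.38, 2.34 and 0.53 on d4 and 2.35, 0.41 and 0.65 on d6. The d2 arrays of either line did not overlap with the d0 or d6 arrays, and the d4 arrays were high in Cl19 and low in 3c3. No d0 or d6 array was well above background for *Cldn2*, and d2 was therefore at least 12.9-fold above d0 in Cl19 and at least 13.6-fold in 3c3. Such a bound sets the peak mean against the higher of the probe's own signal and the lowest signal called well above background on each dim array.

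*Muc13*, a transmembrane mucin of the apical surface, peaked on d2 at 4.35 and 2.72 in Cl19 and 4.09, 5.13 and 3.30 in 3c3. Its d0 and d6 values were between 0.15 and 1.67 on all arrays of both lines, none of them well above background. The d2 level was at least 2.26-fold that on d0 in Cl19 and at least 2.83-fold in 3c3. *Cdhr2* (Pcdh24 on the array), a protocadherin that links the tips of brush border microvilli, was measured by 3 member probes, all with a d2 peak in both lines. The brightest, at chr17:15941851-15941910, was at 6.29 ± 0.10 (SD, n = 3) on d0, 9.25 ± 0.07 (SD, n = 2) on d2 and 6.43 ± 0.43 (SD, n = 3) on d6 in Cl19. In 3c3 the same days gave 4.70 ± 0.11, 8.46 ± 0.65 and 5.56 ± 0.58 (n = 3 each). The other 2 probes had rises of 2.76 and 2.21 in Cl19 and 3.83 and 2.68 in 3c3.

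The endocytic receptor *Lrp2*, also named megalin, and its adaptor *Dab2* both peaked on d2. This pair, and the other members named without a place among the 25 highest ranked genes, were picked after their values were seen. *Lrp2* was at 6.59 ± 0.85 (SD, n = 3) on d0 and 9.83 ± 1.16 (SD, n = 2) on d2 in Cl19, and at 6.36 ± 0.92 and 9.59 ± 0.81 in 3c3 (n = 3 each), with d2 9.41-fold and 9.38-fold above d0. *Dab2* was bright throughout, from 10.74 on d6 to 13.47 on d2 in Cl19 and from 11.61 on d0 to 13.77 on d2 in 3c3. *Cltrn* (Tmem27), the collectrin that amino acid transporters of the kidney need at the apical surface, was too dim on all d0 arrays to be called. Its d2 level was at least 33.4-fold that of d0 in Cl19 and at least 18.0-fold in 3c3, and on d6 it was still at 5.70 and 4.41.

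Among solute carriers, *Slc27a5*, which encodes a ligase that joins bile acids and very long chain fatty acids to coenzyme A, had 2 member probes. The one at chr1:72935145-72935204 was at 4.79, 4.51 and 4.56 on d0, 8.96 and 8.49 on d2 and 3.61, 2.96 and 5.45 on d6 in Cl19. In 3c3 it was at 4.23, 3.89 and 4.49 on d0, 9.96, 9.04 and 8.96 on d2 and 7.37, 6.47 and 6.45 on d6. The d6 arrays lay around the d0 values in Cl19 and above every d0 array in 3c3. *Slc5a2*, the sodium-glucose cotransporter SGLT2 of the proximal tubule, had rises of 2.27 and 3.42, with a d2 peak at 5.88 in Cl19 and 6.98 in 3c3. *Slc51a* (Ostalpha), a subunit of the basolateral bile acid exporter, reached 8.79 and 7.23 on d2 and was at 4.91 and 4.75 on d6, lower than its d0 means of 7.29 and 5.5. *Slc1a6*, the glutamate transporter EAAT4, followed another timing. It was near 6.22 on d0 and 6.60 on d2, reached 10.60, 8.95 and 9.86 on d4 and was at 7.44, 7.10 and 6.49 on d6 in Cl19, and in 3c3 it was at 8.21, 9.84 and 8.95 on d4 and 4.91, 6.35 and 7.15 on d6.

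Among apolipoproteins, *Apoa4*, a component of chylomicrons and high density lipoprotein, covered a wide range of levels. In Cl19, *Apoa4* was at 4.76, 5.17 and 5.08 on d0, 12.18 and 13.51 on d2, 14.65, 12.86 and 12.63 on d4 and 9.51, 8.25 and 11.01 on d6. The 3c3 values were 2.54, 5.34 and 3.62 on d0, 12.95, 12.57 and 12.75 on d2, 11.30, 10.71 and 10.75 on d4 and 10.64, 9.40 and 10.54 on d6. The peak in Cl19, on d4, was 333-fold above d0 and 13.8-fold above d6, and its d6 arrays in both lines still lay above every d0 array. *Apoc3*, an inhibitor of lipoprotein lipase, had 2 member probes, which went from 3.97 and 4.30 on d0 to 7.53 and 7.38 on d2 in Cl19. *Apom*, which carries sphingosine 1-phosphate, went from 7.15 to 10.64 in Cl19, and in 3c3 its rise was 1.60. In 3c3 both *Apoc3* and *Apom* were a little lower on d4 than on d6, for *Apom* 8.04 against 8.50.

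The lipid enzymes *Scd* (Scd1 on the array) and *Acp6* belonged to the members with the smallest rises. *Scd*, the stearoyl-CoA desaturase that makes monounsaturated fatty acids, was at 10.39 on d0, 11.90 on d2 and 7.08 on d6 in Cl19, and at 9.35, 10.87 and 6.94 in 3c3. Its rise was small against d0 and large against d6, 28.2-fold in Cl19 and 15.2-fold in 3c3. *Acp6*, a lysophosphatidic acid phosphatase, was above 10 on every day in both lines and peaked at 12.17 on d2 in Cl19 and 12.89 on d4 in 3c3.

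**Figure D2:**
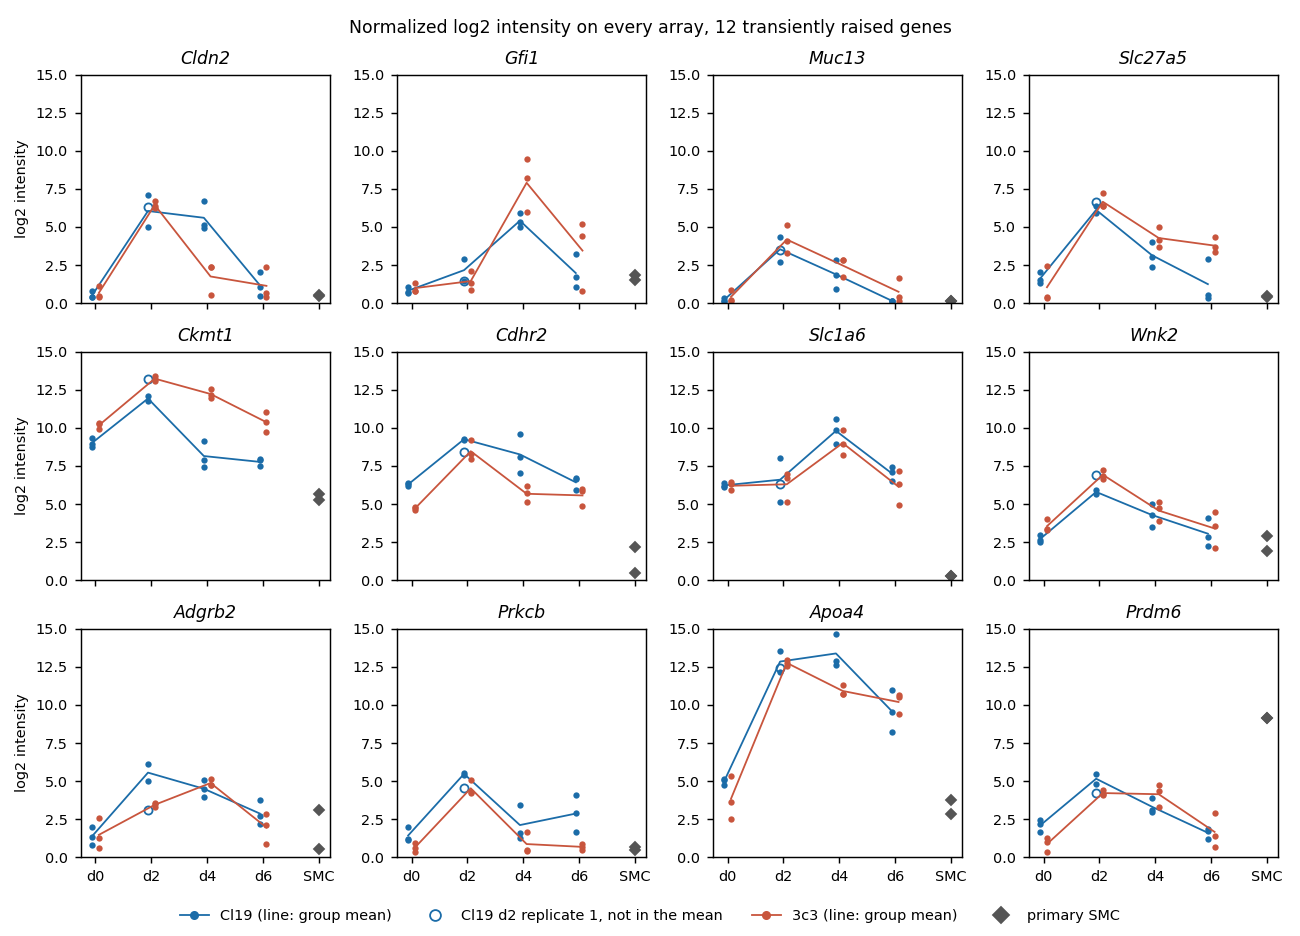
Normalized log2 intensity on every array for the 12 highest ranked member genes, by day and for primary SMC (SMC), with Cl19 in blue, 3c3 in red and lines through group means. The open circle is the array labelled Cl19 d2 replicate 1, which is not in the means. *Gfi1* and *Slc1a6* peaked on d4 in both lines, *Apoa4* stayed at 9.59 and 10.19 on d6, and *Prdm6* was higher in primary SMC than on any day.

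Some members encode nuclear factors, and their share was not set against that of all genes. *Gfi1*, a zinc finger repressor known from blood cell and inner ear development, had the highest rises of the probes that peaked on d4 in both lines (probe at chr14:2606405-2606464). In Cl19 it was at 1.07, 0.73 and 0.64 on d0, 1.42 and 2.91 on d2, 5.93, 4.99 and 5.30 on d4 and 1.69, 3.19 and 1.04 on d6. On the 3c3 arrays it was at 0.81, 0.81 and 1.33 on d0, 0.89, 2.13 and 1.33 on d2, 6.00, 9.48 and 8.22 on d4 and 0.77, 4.41 and 5.16 on d6. No d0 array was well above background for it, and d4 was at least 8.26-fold above d0 in Cl19 and at least 37.4-fold in 3c3. The d6 arrays of 3c3 were spread widely, and 1 of the 3 was not well above background.

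*Cited1*, a coactivator partner that binds CBP and p300 and has no DNA-binding domain, peaked on d2 in both lines. It was at 10.32, 10.80 and 10.89 on d0, 13.56 and 14.58 on d2, 14.16, 13.80 and 13.45 on d4 and 12, 12.20 and 12.50 on d6 in Cl19. In 3c3 it was at 11.54, 11.99 and 11.97 on d0, 15.17, 14.89 and 15.07 on d2, 12.70, 12.61 and 12.19 on d4 and 11.55, 11.14 and 11.14 on d6. The d4 arrays overlapped with the d2 arrays in Cl19, and in 3c3 they lay between the d0 and the d2 arrays. A member probe that the array describes as similar to a Cbp/p300-interacting transactivator, on another chromosome, peaked on the same day as *Cited1* in both lines, with rises of 1.92 and 3.10 against 1.83 and 3.21. Whether the 2 probes can bind each other's transcript was not tested, so they may not be 2 independent measurements.

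*Thrb*, the thyroid hormone receptor beta, was found through its RefSeq transcript, since the array gives its probe no symbol. It was at 2.88 and 4.42 on d2 in Cl19 and 6.01, 4.87 and 5.56 in 3c3, with no d0 or d6 array well above background. A second *Thrb* probe was well above background on 0 of 26 arrays. *Klf14*, a Krüppel-like factor, had rises of 2.03 and 2.79 with a d2 peak in both lines. *Prdm6*, a PR domain repressor found in smooth muscle, peaked on d2 at 4.84 and 5.47 in Cl19 and 4.17, 4.06 and 4.42 in 3c3, and no d0 array was well above background. *Dtx4*, a ubiquitin ligase that acts on Notch signalling, was at 5.99 and 5.04 on d2 with rises of 1.92 and 1.87. A second *Dtx4* probe had rises of 1.36 and 0.77.

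Among receptors and ligands, *Kdr*, the main receptor for VEGF-A on endothelial cells, differed in timing between the lines. In Cl19, *Kdr* was at 2.53, 2.45 and 2.95 on d0, 3.93 and 5.34 on d2, 5.23, 3.28 and 3.48 on d4 and 1.49, 1.29 and 3.24 on d6. The 3c3 values were 1.76, 2.39 and 2.31 on d0, 2.5, 2.13 and 2.15 on d2, 4.62, 8.19 and 7.11 on d4 and 2.91, 2.75 and 2.47 on d6. In 3c3 no d2 array was well above background and all d4 arrays were, with d4 at least 15.7-fold above d0. Of the other endothelial markers examined, *Pecam1* was highest on d0, at 5.80 in Cl19 and 5.82 in 3c3, *Tek* too by its brighter probe (6.01 and 4.88), and *Vwf* had rises of 0.83 and -0.14 by its brighter probe.

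*Cxcl12*, a chemokine that attracts cells carrying Cxcr4, had the same order of days. It was at 3.03, 2.88 and 2.88 on d0, 5.18 and 4.87 on d2, 3.68, 2.52 and 2.84 on d4 and 1.13, 2.33 and 3.48 on d6 in Cl19. In 3c3 it was at 3.35, 3.10 and 3.17 on d0, 3.32, 3.92 and 4.34 on d2, 7.38, 6.70 and 6.84 on d4 and 3.11, 3.59 and 3.82 on d6. The d2 arrays were the highest in Cl19 and the d4 arrays in 3c3, without overlap with the other days of the line. *Efna3*, a membrane-bound ligand of Eph receptors, reached 7.74 on d4 in Cl19 and 10.17 in 3c3, and a second probe of it had rises of 1.40 and 3.30.

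*Gpc3*, a heparan sulfate proteoglycan on the cell surface, and *Pappa*, a protease that frees insulin-like growth factors from their binding proteins, each had 2 member probes. The brighter *Gpc3* probe was at 10.64 ± 0.16 (SD, n = 3) on d0, 13.03 ± 0.43 (SD, n = 2) on d2, 13.62 ± 0.60 (SD, n = 3) on d4 and 11.68 ± 0.77 (SD, n = 3) on d6 in Cl19. In 3c3 the means were 8.60, 12.35, 10.59 and 9.41. The brighter *Pappa* probe was at 5.18 ± 0.29 on d0, 10.44 on d2 and 7.90 ± 0.42 on d6 in Cl19 (n = 3, 2 and 3). In 3c3 it was at 2.66 ± 0.18 on d0, 10.45 ± 0.52 on d2 and 8.41 ± 0.43 on d6 (n = 3 each), with d2 at least 207-fold above d0. In both lines the d6 means of both *Pappa* probes lay above the d0 means.

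*Prkcb*, a protein kinase C isoform, was at 5.41 and 5.54 on d2 in Cl19 and 5.09, 4.26 and 4.23 in 3c3, with no d0 array well above background. *Wnk2*, a kinase that controls ion cotransporters, reached 5.79 and 6.92 on d2. The adhesion receptor *Adgrb2* (Bai2) peaked on d2 at 5.56 in Cl19 and on d4 at 4.88 in 3c3, and the adrenergic receptor *Adra2c* on d2 at 3.78 and 4.14. *Nrxn2*, a synaptic adhesion protein, had rises of 4.05 and 2.03. *Shisa8*, of a family that modulates glutamate receptors, was at 10.24 and 10.61 on d2 and 5.17, 5.55 and 6.37 on d6 in Cl19, and at 10.50, 10.43 and 10.15 on d4 and 8.26, 7.54 and 8.14 on d6 in 3c3.

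Among other enzymes, *Ckmt1*, the creatine kinase of mitochondria, was at 9.33, 8.76 and 8.95 on d0, 12.08 and 11.77 on d2, 9.13, 7.41 and 7.90 on d4 and 7.47, 7.87 and 7.95 on d6 in Cl19. In 3c3 it was at 10.27, 9.92 and 10.30, 13.42, 13.05 and 13.23, 12.55, 12.15 and 11.95 and 11.03, 9.72 and 10.36 on the same days. In Cl19, 2 of the 3 d4 arrays lay below every d0 array, while in 3c3 every d4 array lay above every d0 array. *Hoga1*, a mitochondrial aldolase of hydroxyproline breakdown, had rises of 2.31 and 3.15, *A4galt*, which makes the glycolipid globotriaosylceramide, 2.10 and 2.28, and *Mro* 2.90 and 2.24, all with d2 peaks. *Gda*, the guanine deaminase, was at 2.47 and 3.01 on d2 in Cl19 and 5.03, 6.08 and 6.01 on d4 in 3c3. *Rtp4* was at 7.77 and 6.62 on d2 with rises of 1.96 and 1.80, and *Dcaf12l1* at 4.67 on d4 in Cl19 and 5.71 on d2 in 3c3.

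The 15 probes without a symbol had rises of 1.51 to 4.08 in Cl19 and 1.52 to 3.5 in 3c3. The array calls them expressed sequence tags, sequence contigs and predicted transcripts. A contig probe at chr5:158544213-158544272 was at 6.92, 4.25 and 4.85 on d4 in Cl19 and 8.50, 9.98 and 9.32 in 3c3, and 0 of its d0 arrays were well above background. Some of these probes lie beside another member. On rn4, a tag lay 735 bases from the *Ckmt1* probe on chromosome 3, another 193 bases from the *Cltrn* probe on chromosome X, and 2 tags lay 722 bases apart on chromosome 4. Such neighbours may read 1 transcript and are not separate findings. *Apoa5*, 21842 bases from *Apoa4*, had rises of -0.53 and -2.04.

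Besides the members, 8 other probes measured member genes, 1 each for 8 genes. They are the probes of these genes that failed the criteria, and so are no independent check. Of the 8, 4 were well above background at their highest day in both lines. These 4, of *Efna3*, *Slc5a2*, *Dtx4* and *Apom*, had rises above 0 in both lines, and those of *Efna3* and *Slc5a2* were 1 or more in both. The *Apom* probe had rises of 0.48 and 0.44, against 2.03 and 1.60 for the member probe. The other 4, of *Cldn2*, *Cxcl12*, *Nrxn2* and *Thrb*, were not well above background at their peak and have no measured rise.

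Whether members were back at their d0 level on d6 was asked with limma, fitted over 24673 probes and 25 arrays, and a probe passed at a Benjamini-Hochberg adjusted p under 0.05. Since both days entered the choice, the counts are given beside those of all probes and nothing is read from them. In Cl19, 16 of the 61 members were higher on d6 than on d0, where 22.1% of all tested probes were, and 10 were lower, against 30.2% of all. In 3c3, 14 were higher, against 20.0% of all, and 3 were lower, against 28.6%. The median difference of the members was 0.37 in Cl19 and 0.36 in 3c3, and that of all tested probes -0.20 and -0.21.

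In both lines 9 members were higher on d6 and 3 were lower, and 0 moved in opposite directions. These counts over both lines were not taken for all probes, and nothing is read from them. Those above d0 included *Apoa4*, by 4.59 ± 0.69 (SE) in Cl19 and 6.36 ± 0.69 (SE) in 3c3, both *Pappa* probes, by 2.72 ± 0.33 (SE) and 5.75 ± 0.33 (SE) for the brighter one, *Cltrn*, by 3.76 ± 0.50 (SE) and 3.41 ± 0.50 (SE), and *Apom*, by 1.46 ± 0.45 (SE) and 1.83 ± 0.45 (SE). The 3 below were *Scd*, by -3.31 ± 0.76 (SE) in Cl19 and -2.41 ± 0.76 (SE) in 3c3, and the pair of neighbouring tags on chromosome 4. Where d0 was not well above background, as for *Cltrn* in both lines and *Pappa* in 3c3, the fitted difference depends on dim values.

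The step from d2 to d4 was taken within each line. In Cl19, 20 members were lower on d4 than on d2 with limma, against 5.92% of all tested probes, and 3 were higher, against 5.89%. In 3c3, 32 were lower, against 4.96% of all, and 10 were higher, against 5.14%. The higher of these 2 days was part of the choice, and nothing is read from these shares. The same holds for the counts over both lines below, which were not taken for all probes. Members lower on d4 in both lines numbered 10, among them *Slc5a2*, by -1.71 ± 0.44 (SE) in Cl19 and -2.51 ± 0.39 (SE) in 3c3, *Prkcb*, by -3.36 ± 0.60 (SE) and -3.66 ± 0.54 (SE), and both probes of *Slc27a5* and of *Pappa*. Members higher on d4 in both lines were *Gfi1*, by 3.24 ± 1.02 (SE) and 6.45 ± 0.91 (SE), *Slc1a6*, by 3.21 ± 0.75 (SE) and 2.70 ± 0.67 (SE), and a contig probe. Without Cl19 d2 replicate 2 the total for Cl19, 23, was 10, without Cl19 d2 replicate 3 it was 13 and without Cl19 d4 replicate 3 it was 14. The total for 3c3, 42, was 27 without 3c3 d2 replicate 1.

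The lines were then set against each other. The choice used the d2 and d4 means of each line but not their difference between the lines, so these tests are not independent of it and nothing is read from the counts. The step from d2 to d4 differed between the lines for 13 of the 61 members by limma. It was more positive in Cl19 for 4, against 1.02% of all tested probes, and more negative in Cl19 for 9, against 1.74%. Without Cl19 d2 replicate 2 the 13 became 6, and without the slide of 3c3 replicate 3 they became 4. Scan day and line coincide, while the 4 days of a replicate shared a slide. The fit compared group means with no term for the slide and included Cl19 d4 replicate 1, so the steps within slides are given beside it. With the slide number as a block, the calls for *Cxcl12*, *Kdr*, *Shisa8*, *Ckmt1*, *Cldn2* and *Cited1* remained, and that for *Efna3* did not.

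*Cxcl12* had the clearest difference. Within slides its step was -2.66 and -2.03 in Cl19 replicates 2 and 3 and 4.06, 2.79 and 2.49 in 3c3 replicates 1, 2 and 3, with opposite signs in the lines. The difference, Cl19 minus 3c3, was -5.12 ± 0.63 (SE), with limma adjusted p = 1.8e-04. *Kdr* went the same way, with steps of -0.66 and -1.87 in Cl19 and 2.12, 6.06 and 4.96 in 3c3 and a difference of -5.02 ± 1.04 (SE) (limma adjusted p = 0.011). *Shisa8* had steps of -2.96 and -3.33 and 0.93, 0.85 and 0.19 and a difference of -3.32 ± 0.52 (SE) (limma adjusted p = 0.0012), and *Ckmt1* steps of -4.67 and -3.86 and -0.87, -0.89 and -1.27 and a difference of -2.76 ± 0.53 (SE) (limma adjusted p = 0.006).

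In the other direction, *Cldn2* stayed high on d4 in Cl19 and not in 3c3. Its steps were 0.17 and -2.19 in Cl19 and -4.32, -4.05 and -5.70 in 3c3, a difference of 4.25 ± 0.94 (SE) with limma adjusted p = 0.016. *Cited1* had steps of 0.24 and -1.13 and -2.47, -2.28 and -2.88 and a difference of 2.28 ± 0.42 (SE) (limma adjusted p = 0.0051), and the probe similar to it had 2.28 ± 0.42 (SE). The calls for *Cldn2*, *Kdr* and *Cited1* were lost without the slide of 3c3 replicate 3, with limma adjusted p of 0.098, 0.095 and 0.060. Leaving out 1 array also ended them, Cl19 d2 replicate 2 for *Cldn2* (0.15) and *Cited1* (0.052), and Cl19 d2 replicate 3 for *Kdr* (0.093). With the normexp background correction, limma adjusted p was 0.13 for *Cldn2* and 0.064 for *Kdr*. *Cxcl12*, *Shisa8*, *Ckmt1* and the probe similar to *Cited1* passed under all 35 other settings. *Rtp4*, *Acp6*, *Efna3*, 1 of the *Apoc3* probes and 2 tags also passed in the fit as reported, and each lost the call under at least 2 settings.

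**Figure D3:**
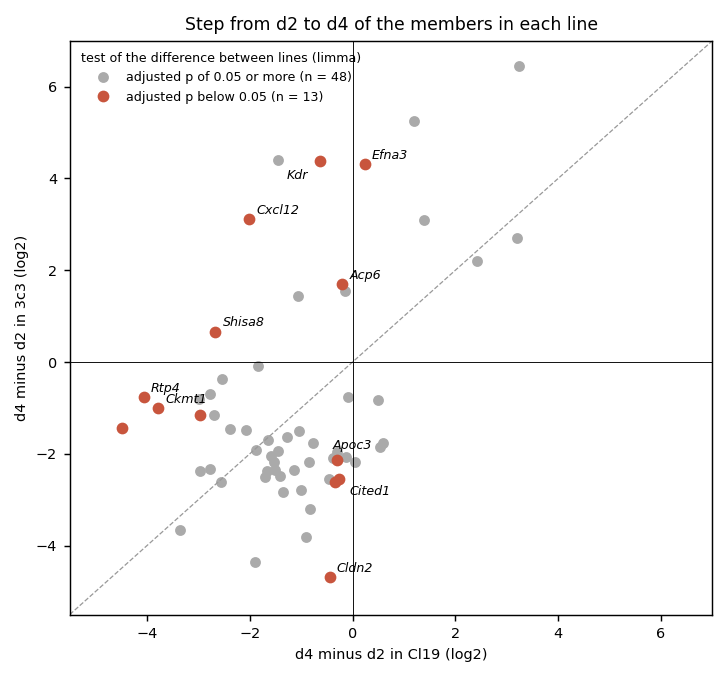
Difference of the d4 from the d2 mean of each member in Cl19 (horizontal) and 3c3 (vertical), in log2 units, with the 13 probes in red whose steps differed between the lines by limma and a dashed line at equality. *Cxcl12* and *Shisa8* lie in the upper left, lower on d4 in Cl19 and not in 3c3, and *Cldn2* and *Cited1* in the lower middle, lower on d4 in 3c3.

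Levels before differentiation were also compared between the lines. On d0, 6 of the 61 were higher in Cl19 than in 3c3 by limma, against 2.54% of all tested probes, and 1 was lower, against 1.52%. Line and scan day cannot be told apart for a level. Higher in Cl19 were both *Pappa* probes, by 2.39 ± 0.38 (SE) and 2.52 ± 0.33 (SE), the brighter *Gpc3* probe, by 2.04 ± 0.42 (SE) (limma adjusted p = 0.0065), *Slc51a*, by 1.79 ± 0.36 (SE) (limma adjusted p = 0.0048), *A4galt*, by 1.77 ± 0.49 (SE), and *Shisa8*, by 1.26 ± 0.34 (SE). *Cited1* was lower, by -1.16 ± 0.28 (SE) (limma adjusted p = 0.021). No 3c3 d0 array was well above background for *Pappa*, so its difference there is fitted on dim values, and it lost the call with the normexp background correction (limma adjusted p of 0.91 and 0.52). With the slide as a random block, limma adjusted p was 0.055 for *Cited1*, 0.10 for *A4galt* and 0.091 for *Shisa8*. The same calls were also lost without 1 of several arrays, Cl19 d0 replicate 1 among them, and without the slide of 3c3 replicate 3.

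Primary SMC RNA, which had no part in the choice, held few of the members at a level well above background. On both of its arrays 15 of the 61 probes, or 24.6%, were well above background, against 41.6% of all 41012 probes and 69.2% of the probes tested with limma. On 41 probes neither array was. A probe was tested with limma if it was well above background on every array of any group, primary SMC included. That filter raises the 69.2%, while the members were chosen by calls in the 2 lines alone. By the softer scanner call of a positive and significant signal, 31 members were present on both. The share of all probes by that call was not taken, so nothing is read from the 31. *Cldn2*, *Muc13*, *Lrp2*, *Slc1a6*, *Gpc3*, *Apoa4*, *Gfi1* and *Kdr* were well above background on 0 of the 2 arrays. Their primary SMC values were 0.52 and 0.46 for *Cldn2*, 0.25 and 0.24 for *Lrp2*, 1.08 and 0.89 for the brighter *Gpc3* probe and 3.76 and 2.81 for *Apoa4*.

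A smaller set was bright there. *Cxcl12* was at 13.34 and 13.28 in primary SMC, above its peaks of 5.02 in Cl19 and 6.97 in 3c3, *Thrb* at 9.52 and 9.37, *Prdm6* at 9.13 and 9.12 and *Gda* at 9.05 and 9.18. *Dtx4* was at 6.92 and 6.99 and *Scd* at 11.45 and 11.43. The means of 6 members in primary SMC exceeded their peaks in both lines, and those of 9 exceeded the peak in at least 1. *Apoc3* was at 7.77 and 7.74 by the second of its probes, against peaks of 7.38 and 7.67. Both arrays hold purchased RNA, and no test was made.

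**Figure D4:**
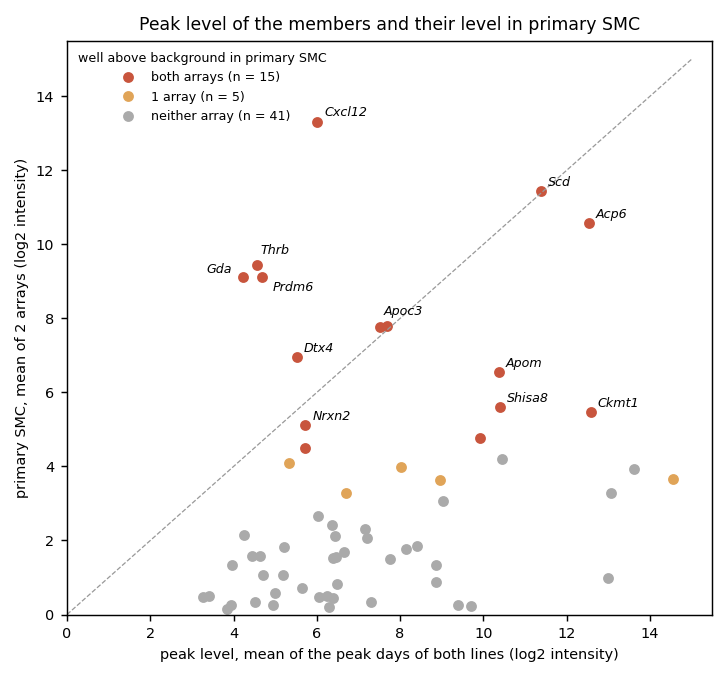
Mean level of each member on the peak days of both lines (horizontal) against its mean over the 2 primary SMC arrays (vertical), in log2 intensity, coloured by how many of the primary SMC arrays were well above background. The dashed line marks equality. Most members lie far below it, 41 of them not well above background on either array, while *Cxcl12*, *Thrb*, *Gda*, *Prdm6* and *Dtx4* lie above it.

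Of 26 lists of pathways and cell types written from general knowledge, 3 held a member gene, *Kdr* among 22 measured endothelial and vascular genes, *Cxcl12* among 21 chemokines and cytokines and *Cited1* among 24 mesendoderm and mesoderm factors. Lists of smooth muscle contractile genes (18 measured), TGF-β feedback and target genes (26), BMP ligands, antagonists and Id genes (19), Notch genes (17), and epithelial and keratin genes (23) held none. Only 61 of all 41012 probes were members, so nothing is read from a list of this size that held none. Several list genes met the criteria in 1 line only, where 284 of all probes met them in Cl19 and 175 in 3c3. *Ifit3*, *Isg15* and *Oasl*, interferon response genes, did so in Cl19, with rises of 3.21, 2.08 and 1.70 against -0.58, 0.91 and -0.24 in 3c3. Hypoxia genes did so in 3c3, *Ankrd37* with 2.39 against 0.14 in Cl19, *Egln3* with 2.33 against 0.63, *Vegfa* with 1.53 against 0.88 and *Ndrg1* with 1.51 against 1.08. The median rise of the 17 tested probes of that list was 1.11 in 3c3 and 0.54 in Cl19, against -0.19 and -0.21 for all tested probes. The difference between the lines in a rise was not tested.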

How the data were processed

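RNA of rMAPCs on d0, d2, d4 and d6 and of primary SMC was hybridised to 26 Agilent 1-colour rat arrays. The authors deposited the scanner output of Agilent Feature Extraction 10.1.1.1, whose intensity values are background-subtracted and detrended processed signals, with probe positions on rn4. The deposited log2 table held log2 of the same signals, not normalized between arrays, and was used as an alternative. The study's own selection of probes, by the area between a time course and a constant profile, was not repeated.

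Control features were left out, log2 intensity was quantile-normalized over 26 arrays, and features of a probe were averaged, which gave 41012 probes. Tests used limma 3.58.1 in R 4.3.3 over 9 groups and 25 arrays, on the 24673 probes that passed a filter on dim probes, with Benjamini-Hochberg adjustment at 0.05. Tables and figures were made in Python 3.11.15. On simulated data for d6 against d0 in Cl19 over 24673 probes, 70% of probes raised by 2 log2 units and 30% of those raised by 1 were recovered. There, only 200 probes were changed on d6, while in the data 22.1% were called higher and 30.2% lower. The adjustment depends on that share, so recovery in the data may differ. The number of arrays limits the precision.

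Members and gene lists were chosen with earlier results of these data known. Named were the 25 genes with the highest smaller rise of both lines, member genes on a list, and genes at the threshold. Alternatives changed the normalization, background correction, filter, height of the rise, arrays left out and the slide as a block.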

Additional observations from a re-analysis of the deposited data

Results flagged for a closer look

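For 6 named genes the step from d2 to d4 differed between the lines by a test of the difference itself, an interaction term in limma across all tested probes. The step in Cl19 minus that in 3c3 was 4.25 log2 units for *Cldn2* (limma adjusted p = 0.016) and 2.28 for *Cited1* (limma adjusted p = 0.0051). It was -2.76 for *Ckmt1* (0.006), -5.12 for *Cxcl12* (1.8e-04), -5.02 for *Kdr* (0.011) and -3.32 for *Shisa8* (0.0012), each with its limma adjusted p in brackets. *Cxcl12*, *Kdr* and *Shisa8* had opposite signs of the step in the lines, on every slide whose d2 and d4 arrays were both used. The slide of Cl19 replicate 1 was not among these, since its d2 array was left out. Each line is 1 clone, and Cl19 d2 rests on 2 arrays. Without Cl19 d2 replicate 2 the limma adjusted p was 0.15 for *Cldn2* and 0.052 for *Cited1*, and without Cl19 d2 replicate 3 it was 0.093 for *Kdr*. The choice of members used the same days, so these tests are not independent of it.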

How the results depend on the processing

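The number of member probes, 61, depended most on the treatment of dim values and on the size of the rise asked for. It was 13 with normexp background correction and an offset of 50, 133 with a rise of 1 or more and 30 with a rise of 2 or more. It was 53 with scaling to the 75th percentile (52 of them among the 61), 65 with the deposited log2 table without normalization (57), 59 with the array labelled Cl19 d2 replicate 1 kept (54), 69 without the requirement on the background and 50 with a floor at the lowest signal well above background. With normexp, members that differed on d6 from d0 in 3c3 were 10 instead of 17. With the deposited table, members that differed between the lines on d0 were 12 instead of 7. Without the filter on dim probes, the 13 members whose step from d2 to d4 differed between the lines became 8. Members present in primary SMC were 31 instead of 15 by the softer scanner call, for which no share of all probes was taken.

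Leaving out each array in turn gave 57 to 69 members. Among the 61, it gave 20 to 26 calls for d6 against d0 in Cl19, 16 to 20 in 3c3, 10 to 24 for d4 against d2 in Cl19, 27 to 44 in 3c3, 6 to 14 for the difference between the lines in that step, and 4 to 12 on d0. On d0 the count was 4 without Cl19 d0 replicate 1, Cl19 d0 replicate 2 or 3c3 d0 replicate 3, and 12 without Cl19 d4 replicate 1. Without all 4 arrays of 3c3 replicate 3, an alternative chosen after seeing the data, there were 22 calls for d4 against d2 in 3c3, 4 for the difference in the step and 4 on d0. No direction of a called member turned under any of these settings.

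The 4 days of a replicate number shared a slide. Arrays of the same number deviated together from their group means, with a correlation over 0.1 in 18 of 18 pairs in 3c3 and 14 of 15 in Cl19, and 12 of 12 and 10 of 11 arrays correlated best with their own number. With the slide as a replicate block, a fixed term within lines and a random one between lines on d0, the counts in the same order were 25, 21, 27, 48, 17 and 5, against 26, 17, 23, 42, 13 and 7. The block ended the calls for *Efna3* in the step, for *A4galt*, *Shisa8* and *Cited1* on d0, for *Nrxn2* and a tag on d6 against d0 in Cl19, and for a contig probe on d4 against d2 in Cl19. Dim d0 values limit the comparison with d0 for a part of the members, since 22 in Cl19 and 24 in 3c3 were well above background on 0 d0 arrays. On every d0 array, 33 members in Cl19 and 26 in 3c3 were well above background. By the same call, 51.1% of all probes in Cl19 and 48.0% in 3c3 were.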
